A study of Mus musculus with 14 samples.

Results

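The genes examined were 6 that encode proteins through which regulatory T cells act at a distance: Il10, Ebi3, Il12a, Tgfb1, Areg and Fgl2. They were chosen by name, with earlier results of these data known, and all 6 were found among the 30284 genes of the tables. Messenger RNA was measured by sequencing of Foxp3+YFP+ regulatory T cells sorted from mouse spleen (strain C57/B6). Control cells came from Tln1wt/wt Foxp3cre/wt mice and knockout-labelled cells from Tln1fl/fl Foxp3cre/wt mice, so both groups carried the Foxp3-driven Cre on 1 allele and no treatment was given in the labels. Tln1 encodes talin-1, which links integrin tails to actin and switches integrins to their active form. No source used here gave the age of the mice. Each library was made from 1-2 animals. Foxp3 is X-linked, so a heterozygous female also keeps regulatory T cells in which the Cre allele is silent, and the sort for YFP selects cells that express it. The 14 samples form 7 units, 4 control and 3 knockout-labelled, and n refers to these units.

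Regulatory T cells restrain other immune cells partly through secreted factors. IL-10, encoded by Il10, is a dimer that acts through STAT3 on myeloid cells and T cells. Ebi3 encodes a beta chain that has no activity known for it alone in this setting: with the product of Il12a it forms IL-35, and with that of Il27 it forms IL-27. Il12a encodes the alpha chain that also joins the product of Il12b to form IL-12. TGF-beta 1, from Tgfb1, is secreted in a latent form that alpha v integrins can release, and the carrier protein GARP (Lrrc32) holds it on the surface of regulatory T cells. Amphiregulin, from Areg, is an EGF receptor ligand tied to tissue repair, and Fgl2 encodes a fibrinogen-like protein whose soluble form binds the inhibitory Fc receptor encoded by Fcgr2b.

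Reads assigned to genes ranged from 12851425 to 39214264 in the control units and from 38811489 to 56109143 in the knockout-labelled units, so control units 1, 2 and 4 were shallower than any knockout-labelled unit. The total Tln1 level did not check the labels: it was 668 ± 128 CPM (reads scaled to library size; SD, n = 4) in control units and 901 ± 113 CPM (SD, n = 3) in knockout-labelled units. A short Tln1 transcript of 283 bases was higher in every control unit, though control unit 2 was close to the knockout-labelled units. It was at 185, 9.86, 190 and 163 TPM (a level per transcript length, scaled to library size) across control units 1 to 4, against 6.6, 4.92 and 1.81 TPM. Of 8 defining genes of regulatory T cells all were detected in every unit, with Foxp3 at 324 to 478 CPM in control and 370 to 514 CPM in knockout-labelled units. Il2ra, Ikzf2 and Tigit fell in the test described below, Ikzf2 only narrowly (edgeR adjusted p = 0.0491). The other 5 genes, Foxp3 among them, were not called.

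Of the 6 genes, Il10 fell and Il12a rose in the knockout-labelled units, and Ebi3, Tgfb1, Areg and Fgl2 did not pass the test. The test was edgeR's quasi-likelihood test over 15775 genes with Benjamini-Hochberg adjustment at 0.05, and all 6 genes passed its filter on low counts. Il12a did so through the knockout-labelled units, since no control unit held more than 6 of its reads. The same test called 13.6% of all genes, 7.07% higher and 6.52% lower, against 1 and 1 of the 6 genes. The median log2 fold change of the 6 genes was -0.09, and that of all genes tested was 0.06. In sorted bulk RNA, fewer cells that express a gene and less RNA per cell cannot be told apart.

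**Figure D1:**
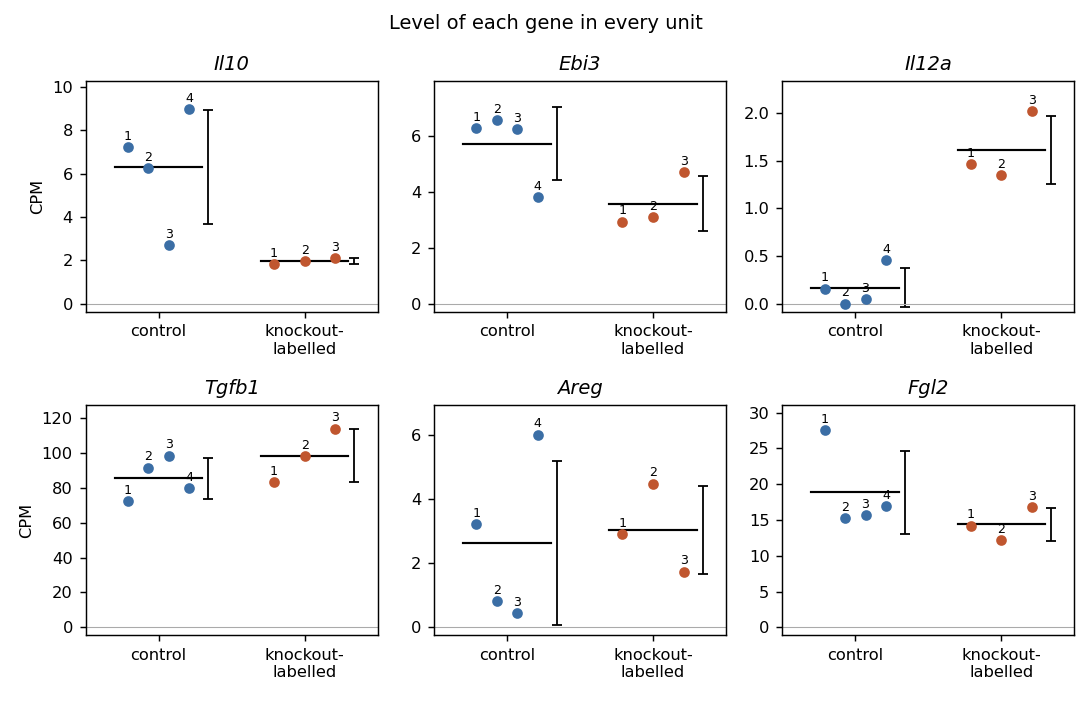
Level of each gene in CPM (vertical axis, linear, own scale in each panel) in the 4 control units (blue) and 3 knockout-labelled units (orange); digits give the unit number, lines the mean and side bars 1 SD. The knockout-labelled units lie below all control units for Il10 and above all of them for Il12a, and the groups overlap in the other panels.

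Il10 was at 7.24, 6.25, 2.72 and 8.99 CPM in control units 1 to 4 and at 1.81, 1.96 and 2.11 CPM in the 3 knockout-labelled units. All 3 knockout-labelled units lay below the lowest control unit, which was unit 3, and they varied little among themselves. A gap of this direction between the groups was seen for 14.1% of all genes. The mean went from 6.3 ± 2.64 CPM (SD, n = 4) to 1.96 ± 0.146 CPM (SD, n = 3), a 3.19-fold fall (log2 fold change -1.67 ± 0.41, SE; 95% interval -2.59 to -0.75; edgeR adjusted p = 0.0285). These levels rest on 92 to 128 reads per control unit and 77 to 119 per knockout-labelled unit. Control unit 3, the lowest control unit for Il10, was also the deepest, with 39214264 reads in genes. That depth was close to the 38811489 reads of knockout-labelled unit 2. The part of depth in the Il10 values was not tested. Per length, Il10 was at 4.77 ± 1.85 TPM (SD, n = 4) and 1.46 ± 0.14 TPM (SD, n = 3). Il10 (ENSMUSG00000016529) lies at chr1:131019845-131024974 on the plus strand of GRCm38 and has 1 transcript of 5 exons in the tables.

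The fall in Il10 kept its direction in every setting tried, but the call did not. The call held in 2 of 7 fits with 1 unit left out, those without control unit 1 (adjusted p = 0.0481) and control unit 3 (0.013). Without control unit 2 or 4 the edgeR adjusted p was 0.0584 and 0.0841, and without knockout-labelled unit 1, 2 or 3 it was 0.0652, 0.0726 and 0.065. It was 0.0678 with limma-voom and 0.0538 with an offset for GC content and transcript length, where the log2 fold change was -1.36. Genes under 40% GC stood at 0.40, 0.20, -0.02 and 0.34 (log2, median deviation from the mean of the units) in control units 1 to 4, and at -0.12, -0.24 and -0.50 in knockout-labelled units 1 to 3. Il10 itself has 44.5% GC.

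Il12a was nearly absent from the control units. It had 2, 0, 2 and 6 reads in control units 1 to 4 and 66, 53 and 114 reads in knockout-labelled units 1 to 3, or 0.157, 0.0, 0.0499 and 0.457 CPM against 1.46, 1.35 and 2.02 CPM. Control units 1 to 3 were under the level of 3 reads in their library (0.236, 0.147 and 0.0749 CPM), and every knockout-labelled unit was above every control unit. Such a gap upward was seen for 16.7% of all genes. Il12a passed the low-count filter through the knockout-labelled units, the group where it was high, so this gap is a description. The log2 fold change was 3.48 ± 0.88 (SE; 95% interval 1.53 to 5.43; edgeR adjusted p = 0.0305). Pooled over the units of a group, 10 reads stood against 233, a ratio of 14.3 per library size with a 95% interval of 7.63 to 30.2 that covers counting error only. The call held in 3 of 7 fits with 1 unit left out. Without control unit 3 the adjusted p was 0.0591, and without knockout-labelled unit 1, 2 or 3 it was 0.0556, 0.0625 and 0.0954. Without control unit 4, which held 6 of the 10 control reads, the log2 fold change was 4.72, and it was 4.12 with limma-voom and 4.18 from the first sample of each unit.

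Il12a (ENSMUSG00000027776, chr3:68690644-68698547, plus strand) has 2 start sites in RefSeq, and reads were assigned to the coding transcript of 1 of them. The coding transcript of the upstream start, ENSMUST00000029345 with 8 exons, was given 0 reads in all 7 units. That of the downstream start, ENSMUST00000107816 with 7 exons, was given 20.7, 26.7 and 58.9 estimated reads in knockout-labelled units 1 to 3, and 2 reads in control unit 1. A transcript with a retained intron that begins close by, ENSMUST00000195408, was given 21.6, 21.8 and 37.8 reads. The 8 reads of control units 3 and 4 were all given to this retained-intron transcript, so no read of these units was assigned to a coding form. Most other reads of the knockout-labelled units went to ENSMUST00000192812, a retained-intron transcript that begins inside the gene, with 20.9, 4.02 and 14.9 reads. The tool that counted the reads divides those that fit several transcripts by estimation. Both windows below, from RefSeq on GRCm38.p6, run from 250 bases before to 50 bases after the start, 5′ to 3′ on the plus strand, and are shown because coding reads were assigned to 1 of the 2 starts. Capitals mark a GC box.
Il12a upstream start, chr3:68690394-68690693: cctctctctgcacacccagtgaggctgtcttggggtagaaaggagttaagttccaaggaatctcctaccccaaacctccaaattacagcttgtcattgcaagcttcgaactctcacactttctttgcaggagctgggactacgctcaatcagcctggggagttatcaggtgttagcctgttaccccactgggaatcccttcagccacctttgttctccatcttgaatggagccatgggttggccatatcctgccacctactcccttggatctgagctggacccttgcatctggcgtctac
Il12a downstream start, chr3:68691174-68691473: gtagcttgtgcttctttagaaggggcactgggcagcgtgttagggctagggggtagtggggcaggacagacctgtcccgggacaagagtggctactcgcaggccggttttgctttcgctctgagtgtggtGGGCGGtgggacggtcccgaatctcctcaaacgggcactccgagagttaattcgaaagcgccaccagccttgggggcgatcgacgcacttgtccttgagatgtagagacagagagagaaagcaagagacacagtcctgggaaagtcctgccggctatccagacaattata

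Altogether 6 motifs were searched on both strands of the promoter windows. The cAMP response element, which CREB proteins bind, was searched as TGACGTCA. The AP-1 site, bound by Fos and Jun proteins, was searched as TGANTCA. The remaining motifs were a TATA box (TATAAA), near which transcription often begins, a GC box of Sp1 family factors (GGGCGG), a STAT site (TTCNNNGAA) and an NF-kB site. The downstream Il12a window held 1 GC box, a match that 35.7% of 32851 windows of 300 bases hold. The upstream Il12a window and that of Ebi3 held none of the 6, and that of Tgfb1 held 6 GC boxes and no other match. No match overlapped another in the windows of the genes examined. Windows were found for 5 of the 6 genes, and Il10 had no entry.

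Ebi3, the partner chain of Il12a in IL-35, was at 6.29, 6.59, 6.27 and 3.81 CPM in control units 1 to 4 and at 2.94, 3.09 and 4.71 CPM in the 3 knockout-labelled units. Control unit 4 lay among the knockout-labelled units, and the other 3 control units lay above all of them. The means were 5.74 ± 1.3 CPM (SD, n = 4) and 3.58 ± 0.981 CPM (SD, n = 3). The log2 fold change of -0.68 ± 0.33 (SE; 95% interval -1.41 to 0.04) did not pass the test (edgeR adjusted p = 0.178). It was negative in all settings tried, between -0.56 and -0.94. Ebi3 (ENSMUSG00000003206) lies at chr17:55952640-55957022 on the plus strand.

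At the gene level and per length, Ebi3 exceeded Il12a by 45, 76.2 and 5.04 times in control units 1, 3 and 4, and Il12a was listed at 0 in control unit 2. In knockout-labelled units 1 to 3 the ratio was 1.74, 1.88 and 2.01, below that of control units 1, 3 and 4. Il12a had 2 reads each in control units 1 and 3, and the gene level includes retained-intron transcripts, to which all Il12a reads of control units 3 and 4 were given. The coding transcript ENSMUST00000107816 alone was at 0.342, 0.57 and 0.759 TPM in the 3 knockout-labelled units. These ratios are a description and were not tested. The other partner chains were low: Il12b was given 2 reads over the control group and 15 over the knockout-labelled group, and Il27 was at 0.944, 0.0488, 0.15 and 1.52 CPM against 0.664, 0.255 and 0.549 CPM. Il27 did not pass the test (edgeR adjusted p = 0.83), and Il12b did not pass the filter on low counts.

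**Figure D2:**
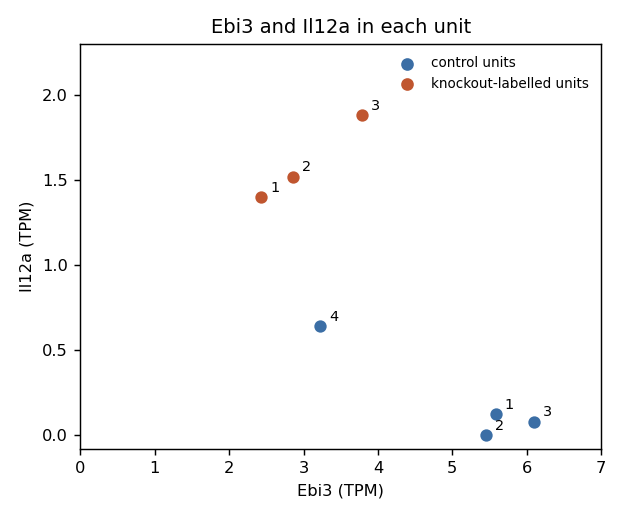
Level per length (TPM) of Ebi3 (horizontal axis) and Il12a (vertical axis) in each unit, control in blue and knockout-labelled in orange, with unit numbers beside the points. The knockout-labelled units lie at 1.4 to 1.88 TPM of Il12a, while control units 1 to 3 lie near 0 and control unit 4 at 0.639 TPM.

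Tgfb1 was by far the most abundant of the 6 genes. It was at 72.2, 91.6, 98.5 and 80.0 CPM in control units 1 to 4 and at 83.4, 98.1 and 114 CPM in the 3 knockout-labelled units, and the groups overlapped. The log2 fold change was 0.20 ± 0.15 (SE; 95% interval -0.14 to 0.54; edgeR adjusted p = 0.397), and its sign turned to -0.11 with the offset for GC content and length. Tgfb1 has 62.5% GC, the highest of the 6 genes. Its coding transcript, ENSMUST00000002678 with 7 exons, took most of the reads and was at 28.5, 32.1, 41.9 and 30.2 TPM across control units 1 to 4 against 30.4, 40.6 and 42.1 TPM. A transcript subject to nonsense-mediated decay, ENSMUST00000169009, was at 5.2, 8.47, 8.69 and 4.94 TPM against 5.03, 1.91 and 4.12 TPM. The latter values overlap, and no transcript was tested. Tgfb1 (ENSMUSG00000002603) lies at chr7:25687002-25705077 on the plus strand.

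Areg varied more within the control group than between groups. It was at 3.22, 0.83, 0.45 and 6.02 CPM in control units 1 to 4 and at 2.9, 4.49 and 1.74 CPM in the 3 knockout-labelled units. Control units 1 and 4 were high and control units 2 and 3 low, and every knockout-labelled unit lay between the lowest and highest control units. The log2 fold change of 0.24 ± 0.83 (SE) had a 95% interval from -1.66 to 2.14 (edgeR adjusted p = 0.869). Its sign turned without control unit 2 (-0.06), control unit 3 (-0.13) or knockout-labelled unit 2 (-0.15). Without control unit 4 the value was 1.07, and with limma-voom 1.22.

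Of 10 genes of early response and dissociation stress, 8 were higher in both control units 1 and 4 than in units 2 and 3, and Egr1 and Ier2 were not. Summed over the list, which includes Fos, Jun and Hspa1a, the level was 1710, 616, 453 and 2110 CPM in control units 1 to 4 and 2940, 4490 and 5000 CPM in the 3 knockout-labelled units. Fosb alone, an AP-1 subunit gene, was at 251, 7.13, 4.94 and 254 CPM in control units 1 to 4. Egr1, an early response transcription factor gene, was at 72.8, 97.9, 73.4 and 82 CPM and was highest in unit 2. The 2 protein-coding genes whose log2 CPM followed Areg most closely over the 7 units were Dnaja1, a heat shock co-chaperone gene (Pearson r = 0.986), and Bhlhe40, a transcription factor gene (0.976), among 8859 genes compared. Across groups the match between Areg and the stress list did not hold, since the knockout-labelled units had the highest sums and middle levels of Areg. The part of cell handling in the Areg values was not tested.

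The Areg promoter (ENSMUSG00000029378 lies at chr5:91139599-91148432, plus strand) is shown here. Its window holds matches to 3 of the motifs searched, as does the window of Fgl2, which is not printed. The RefSeq window of Areg on GRCm38.p6 held a cAMP response element 61 bases before the start, a TATA box 31 bases before it and 2 GC boxes, in capitals. The response element is present in 1.79% and the TATA box in 13.6% of all windows. A match is a description of letters and shows no binding.
Areg, chr5:91139349-91139648: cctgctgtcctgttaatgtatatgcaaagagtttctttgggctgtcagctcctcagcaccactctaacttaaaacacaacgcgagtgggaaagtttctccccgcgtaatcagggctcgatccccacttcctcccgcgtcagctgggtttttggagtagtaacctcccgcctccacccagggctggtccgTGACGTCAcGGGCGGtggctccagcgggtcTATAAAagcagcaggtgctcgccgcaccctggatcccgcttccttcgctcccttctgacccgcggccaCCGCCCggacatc

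Fgl2 was at 27.5, 15.3, 15.7 and 16.9 CPM in control units 1 to 4 and at 14.2, 12.2 and 16.8 CPM in the 3 knockout-labelled units. Control unit 1 stood apart as the highest, knockout-labelled units 1 and 2 lay below every control unit, and unit 3 lay among them. The log2 fold change of -0.39 ± 0.25 (SE; 95% interval -0.94 to 0.16) did not pass (edgeR adjusted p = 0.311). It was -0.15 without control unit 1 and turned to 0.23 with the offset for GC content and length, and Fgl2 has the lowest GC content of the 6 genes, 40.6%. The macrophage markers summed to 150 CPM in control unit 1, 8.4 to 34.6 CPM in the other 3 control units and 228 to 730 CPM in the knockout-labelled units, and their part in the Fgl2 values was not tested. Fgl2 (ENSMUSG00000039899) lies at chr5:21372642-21378374 on the plus strand. Its promoter window held an AP-1 site, which 7.81% of windows hold, a STAT site (8.3%) and a GC box.

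**Figure D3:**
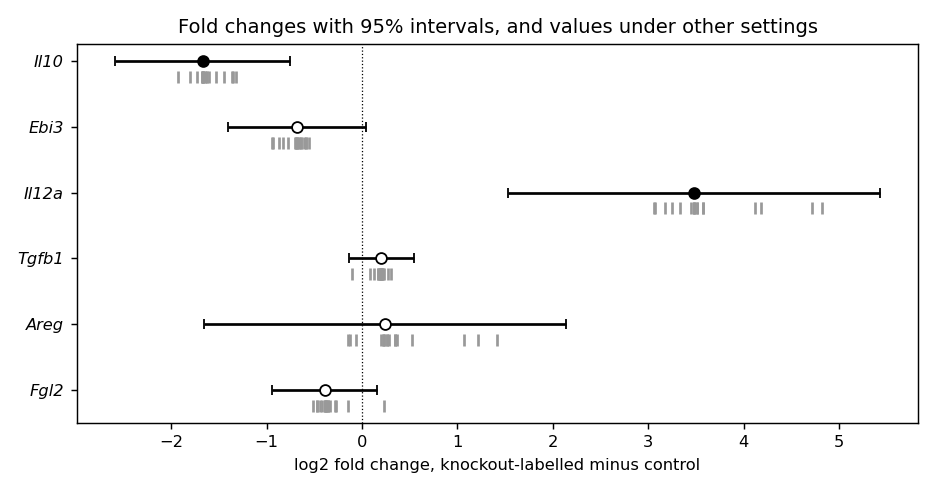
Log2 fold change of each gene, knockout-labelled minus control (horizontal axis), with its 95% interval; filled circles passed the edgeR test and open circles did not. Grey ticks below each gene give its value under the other settings tried, which for Tgfb1, Areg and Fgl2 fall on both sides of 0.

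The order of the levels per length differed between the groups below Tgfb1, which came first in all 7 units at 55.5 ± 12.5 TPM (SD, n = 4) and 57.4 ± 8.59 TPM (SD, n = 3). In the control units Ebi3 (5.09 ± 1.28 TPM), Il10 (4.77 ± 1.85) and Fgl2 (4.5 ± 1.41) followed and did not differ from each other beyond their spread. Areg was next at 2.2 ± 2.11 TPM, and Il12a was last in 4 of 4 units at 0.211 ± 0.29 TPM. In the knockout-labelled units Fgl2 (3.29 ± 0.315 TPM), Ebi3 (3.02 ± 0.69) and Areg (2.57 ± 1.36) followed Tgfb1 within their spread of each other. Il12a (1.6 ± 0.254 TPM, retained-intron transcripts included) and Il10 (1.46 ± 0.14) had the lowest means. The last place was held by Il10 in knockout-labelled unit 1, Il12a in unit 2 and Areg in unit 3.

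Genes with the most similar patterns over the 7 units were named as a description. All points share the 2 groups and the GC trend, and no p is given. For Il10 they were mt-Atp8, a mitochondrially encoded gene that overlaps mt-Atp6 (r = 0.988; mean 1055 CPM in control and 268 CPM in knockout-labelled units), and Cstf3, a polyadenylation factor gene (0.985). For Il12a they were Sppl3, a protease gene (0.977), and Ltf, the lactoferrin gene of neutrophil granules (0.976). Ebi3 was closest to Eri2 and Serpina3g (both 0.959), Tgfb1 to Elac2 (0.984) and Mtg1 (0.981), and Fgl2 to Lin9 (0.963) and Ercc6l2 (0.945).

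Genes of other cell types moved with the groups, and several of those cells can express the 6 genes. Of 10 B cell markers 7 rose, with a summed level of 30.1 to 83.7 CPM in control and 167 to 380 CPM in knockout-labelled units. Of 10 dendritic cell markers 6 rose (4.35 to 16.5 CPM against 46.2 to 75.3 CPM), and of 11 monocyte and macrophage markers 3 rose (8.4 to 150 CPM against 228 to 730 CPM). Plasma cell markers rose in 4 of 6 cases (43.2 to 353 CPM against 806 to 2030 CPM) and those of basophils and mast cells in 6 of 8 (10.2 to 18.9 CPM against 52.7 to 107 CPM). Of 10 neutrophil markers 9 rose (1.95 to 15.5 CPM against 263 to 1610 CPM). Of 8 markers of CD8 T cells and natural killer cells 4 rose (31.1 to 40.3 CPM against 53 to 106 CPM), and of 10 platelet and erythroid markers 7 were tested and 1 rose (10.7 to 24.7 CPM against 45.3 to 1290 CPM). No marker of these lists was at 0 in all knockout-labelled units, and 1, Fcer1a, was at 0 in all control units.

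**Figure D4:**
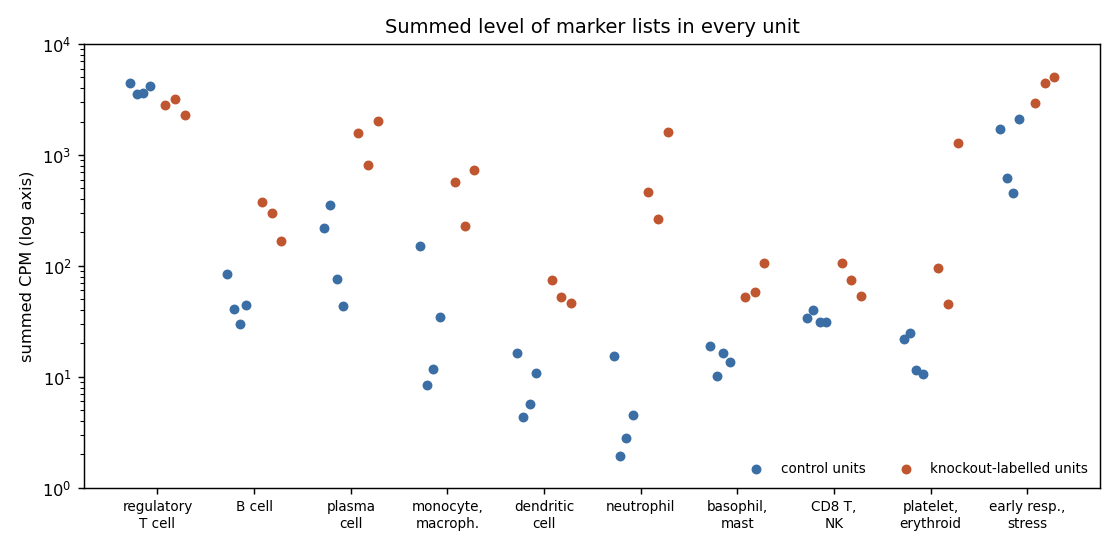
Summed level of each marker list in CPM (vertical axis, log scale) in every control unit (blue) and knockout-labelled unit (orange). The 8 lists of other cell types are all higher in the knockout-labelled units, and the summed list of regulatory T cell genes is lower. Foxp3 alone, a gene of that list, overlapped between the groups and did not pass the test.

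Dendritic cells and macrophages are known sources of Il12a and Ebi3, B cells and macrophages of Il10, and basophils and mast cells of Areg. Il12a was higher beside these markers. Among the dendritic cell genes that rose, Clec10a went from 0 to 0.0762 CPM in control units to 1.15 to 2.83 CPM. Batf3 went from 0 to 0.0749 CPM to 0.587 to 0.841 CPM. Itgax, Xcr1, Zbtb46 and Clec9a did not pass the test. Among knockout-labelled units the dendritic cell sum was lowest in unit 3 (46.2 CPM), where Il12a was highest (2.02 CPM). The monocyte and macrophage sum was highest in that unit (730 CPM), and so were the sums of neutrophils, plasma cells, basophils and mast cells, and platelets and erythroid cells. The sums of B cells and of CD8 T and natural killer cells were lowest there. The part of these cells in the rise of Il12a was not tested. Nor was their part in the Il10 values tested.

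Genes around the 6 factors were counted by role in 6 lists, 106 genes in all, of which 92 were tested: 14 rose and 11 fell. That is 27.2% of the tested genes, against 13.6% of all genes. The lists were written with earlier results of these data known. Without control unit 2 or 4 the rises numbered 8 and 7.

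**Figure D5:**
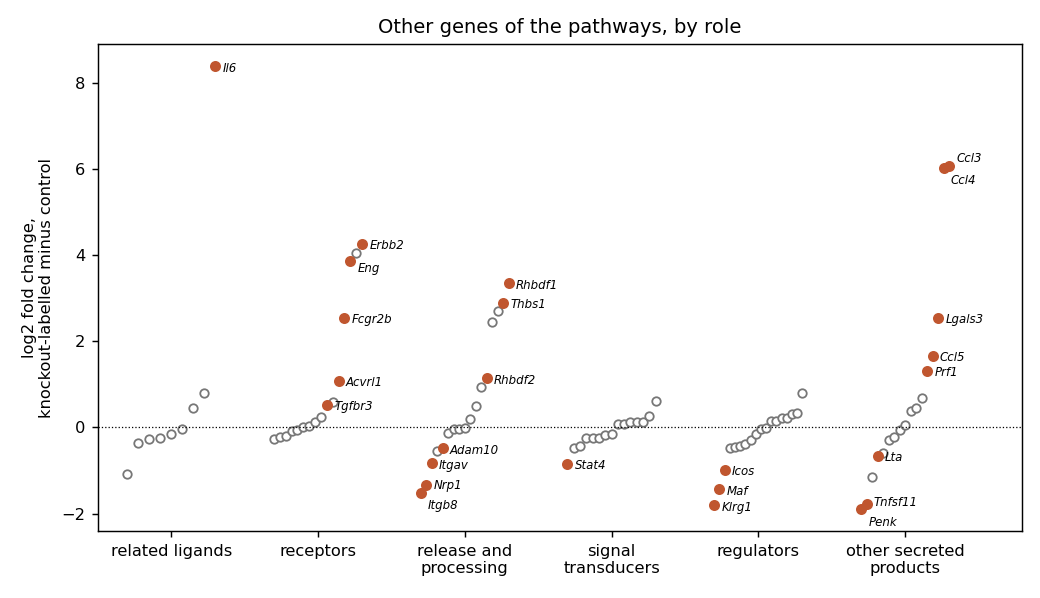
Log2 fold change, knockout-labelled minus control (vertical axis), of the tested genes of each list, ordered by value within a list; filled points passed the edgeR test and are named, open points did not. The value of Il6 is a fitted one against 0 control reads and is no bound.

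Among related ligands, 1 of 9 tested genes rose and 0 fell, with a median log2 fold change of -0.15. The gene that rose was Il6, a cytokine of the same broad family as the IL-12 chains, with 0 reads in all control units and 1.11, 1.45 and 1.29 CPM in the 3 knockout-labelled units. Il6 passed the low-count filter only through the knockout-labelled units. With 3 reads put in place of 0 over the control group, its pooled level was 36.8-fold higher. That ratio leaves out the spread between units and is no bound on the difference between groups. The edgeR adjusted p was 0.00589. The marker lists of other cell types were higher in the same units, as given above, and their part in the Il6 values was not tested. The other TGF-beta genes did not pass: Tgfb2 had a log2 fold change of -0.24 ± 0.72 (SE) and Tgfb3 of 0.46 ± 0.38. Il23a, Il19, Il20, Il22, Il24 and Ereg were too low to test, as was Il12b.

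Of 16 receptor genes 5 rose and 0 fell, with a median log2 fold change of 0.19. Of the receptor chains for IL-10, IL-35 and TGF-beta, Il10ra, Il10rb, Il12rb2, Il6st, Tgfbr1 and Tgfbr2 did not pass the test. Il10ra was at 61.6 to 74.5 CPM in control and 54.3 to 73.7 CPM in knockout-labelled units (log2 fold change -0.09 ± 0.14, SE; edgeR adjusted p = 0.69), and Il6st, the shared chain gp130, had -0.26 ± 0.15. Il10rb was at 82.5 to 89.8 CPM against 65.2 to 78.8 CPM, without overlap (-0.22 ± 0.12; edgeR adjusted p = 0.239). Il12rb2 was low, at 1.83 to 5.32 CPM against 3.74 to 7.02 CPM (0.60 ± 0.39; 95% interval -0.27 to 1.48). Tgfbr1 and Tgfbr2 had log2 fold changes of -0.20 ± 0.18 and -0.05 ± 0.14 (SE), and Tgfbr1 turned to 0.33 with the GC offset. Egfr, the receptor of amphiregulin, was at 1.17 to 4.72 CPM against 2.26 to 4.9 CPM.

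The receptor genes that rose were Acvrl1, Tgfbr3 and Eng, which encode a type I receptor and co-receptors of the TGF-beta family, Erbb2 and Fcgr2b. Acvrl1 went from 4.99 to 7.33 CPM in control units to 13.7 to 14.3 CPM (log2 fold change 1.08 ± 0.23, SE) and held with each of the 7 units left out in turn, but not with the GC offset (0.067). Fcgr2b, the receptor of soluble Fgl2 and a gene that B cells and myeloid cells use, was at 5.27, 1.22, 0.899 and 0.914 CPM in control units 1 to 4 and at 13.5, 11.3 and 10.6 CPM in the 3 knockout-labelled units. It kept its call only without control unit 1, where the log2 fold change was 3.54 against 2.54 with all units; without the other units the edgeR adjusted p was 0.0568 to 0.0978. Eng lost its call without any 1 of control units 1 to 4 (0.0523 to 0.0594) and with limma-voom (0.127), and its log2 fold change was 2.65 without knockout-labelled unit 3 against 3.87 with it. Tgfbr3 passed without knockout-labelled unit 3 alone, and otherwise was at 0.0732 to 0.134; it also missed with DESeq2 size factors (0.0518), no low-count filter (0.0593) and limma-voom (0.0529). Erbb2 lost its call without control unit 4 (0.0545) or knockout-labelled unit 3 (0.0804), and its log2 fold change of 4.27 was 5.05 without control unit 1 and 3.67 without knockout-labelled unit 3. B cell and macrophage markers rose in the same units, as given above.

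In the list of TGF-beta release and amphiregulin shedding, 4 of 17 genes fell and 3 rose, with a median of -0.01. Genes that fell were Itgav and Itgb8, whose products form the integrin that releases latent TGF-beta, Nrp1, and Adam10, a protease gene counted in the list but outside the fixed naming rule. Itgav was at 93.4, 87.3, 78.4 and 92.0 CPM in control units 1 to 4 and at 55.4, 53.3 and 39.4 CPM in the 3 knockout-labelled units (log2 fold change -0.83 ± 0.15, SE). Itgb8 went from 34.5 to 79.5 CPM to 11.6 to 24 CPM (-1.52 ± 0.39; edgeR adjusted p = 0.0451) and kept its call only without control unit 3; the adjusted p was 0.0505 to 0.118 without any other unit, 0.0541 with no low-count filter and 0.0559 from the first sample of each unit. With the GC offset its log2 fold change was -0.92 (adjusted p = 0.0466). Adam10 turned to 0.01 with the GC offset and lost its call with no low-count filter (0.0539) and without control unit 1, 2 or 4 or knockout-labelled unit 1 or 2 (0.0705 to 0.11). The genes that hold or cleave latent TGF-beta did not pass: Lrrc32 was at 240 to 292 CPM against 212 to 312 CPM, and Furin was at 46.8 to 74.7 CPM against 69.7 to 97 CPM (edgeR adjusted p = 0.0824).

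Rhbdf2 and Rhbdf1 encode iRhoms, which bring ADAM17 to the cell surface, where it sheds amphiregulin. Rhbdf2 rose from 13.8 to 17.0 CPM in control units to 27.7, 36.4 and 34.6 CPM in knockout-labelled units (1.14 ± 0.17, SE; edgeR adjusted p = 0.00395) and held with each of the 7 units left out in turn. Rhbdf1 rose from 0.624 to 2.36 CPM to 5.53 to 31.1 CPM and lost its call without control unit 1, 2 or 4 (0.0509 to 0.0696) and with limma-voom (0.0992). Its log2 fold change was 2.39 without knockout-labelled unit 2 against 3.35 with it. Adam17 itself was at 99.8 to 115 CPM against 93.2 to 121 CPM. Thbs1, encoding thrombospondin 1, a protein of platelets and macrophages that can release TGF-beta, rose from 0.195 to 1.07 CPM to 3.16 to 5.03 CPM.

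Of 15 signal transducers, 1 fell and 0 rose, with a median of -0.16. Stat4, which carries signals of the IL-12 receptor chains, fell from 151 to 183 CPM in control units to 107, 90.8 and 79.2 CPM in knockout-labelled units (log2 fold change -0.85 ± 0.14, SE). Stat3, the transducer of IL-10, was at 232 to 268 CPM against 237 to 313 CPM (edgeR adjusted p = 0.569).

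Among 18 regulators tied to Il10 or Areg expression in T cells, 3 fell and 0 rose, with a median of -0.09. Maf, a transcription factor that binds the Il10 gene in T cells, was at 209, 163, 147 and 236 CPM in control units 1 to 4 and at 60, 55 and 93.2 CPM in the 3 knockout-labelled units. The control units had the same order for Maf and Il10, with unit 4 highest and unit 3 lowest, and the knockout-labelled units did not. Areg and the summed list of early response and stress genes also had that order in the control units. A relation between Maf and Il10 was not tested. The log2 fold change of Maf was -1.44 ± 0.23 (SE; edgeR adjusted p = 0.00629), and it held with each of the 7 units left out in turn. Icos, a costimulatory receptor that supports Il10 expression, fell by 0.99 ± 0.15 on the log2 scale, and Klrg1, a marker of effector cells, fell by 1.81 ± 0.40 and lost its call without knockout-labelled unit 2 (0.0521). Prdm1, which encodes Blimp-1, was at 13.6 to 21.4 CPM against 13.7 to 24.8 CPM, and Gata3 at 94.3 to 118 CPM against 84.4 to 107 CPM. Il1rl1, the receptor of IL-33, stood at 9.85 and 11.9 CPM for knockout-labelled units 1 and 2, below all control units (17.4 to 30.5 CPM), but at 32.3 CPM in unit 3, above them. It did not pass the test (edgeR adjusted p = 0.526), and without knockout-labelled unit 3 its adjusted p was 0.0252.

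Among 24 other secreted products of T cells, 17 were tested, 5 rose and 3 fell, with a median of 0.05. Penk, the proenkephalin gene, was at 17.8 to 24.4 CPM in control units and 3.44 to 7.68 CPM in knockout-labelled units, and Tnfsf11, the gene of the cytokine RANKL, at 30.9 to 54.9 CPM against 11.3 to 12.7 CPM. Ccl3 and Ccl4, inflammatory chemokine genes, rose from 0.195 to 0.708 CPM and 0.0999 to 0.472 CPM to 17.4 to 27.8 CPM and 8.06 to 15.7 CPM. Lgals3, the galectin 3 gene and one that macrophages use, rose from 1.55 to 3.07 CPM to 9.88 to 17.6 CPM. These 5 genes kept their calls with each of the 7 units left out in turn, and the log2 fold change of Ccl4 was 6.65 without control unit 1 against 6.03 with it. The others called, outside the naming rule, were Lta, Prf1 and Ccl5. Lta, which fell, lost its call without control unit 2 or 4 or knockout-labelled unit 3 (edgeR adjusted p = 0.053 to 0.0694). Prf1 kept its call only without control unit 3 (0.0524 to 0.105 otherwise), and Ccl5 only without control unit 1 or knockout-labelled unit 3 (0.0732 to 0.1 otherwise), and both lost it with the GC offset (0.0612 and 0.0976). Ccl5 also lost it with limma-voom (0.137) and Prf1 from the first sample of each unit (0.0527). Marker lists of other cell types were higher in the knockout-labelled units too. Their part in the rises of Ccl3, Ccl4, Ccl5 and Prf1 was not tested. Among cytokines of helper T cells, Ifng and Il4 did not pass: Ifng was at 1.77 to 8.02 CPM against 4.23 to 10.5 CPM, and Il4 at 0.0977 to 0.708 CPM against 0.587 to 0.907 CPM. Il17a was too low to test, with 0 reads in the control group and 51 in the knockout-labelled group.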

How the data were processed

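RNA of sorted splenic regulatory T cells was sequenced without strand information, per the labels' protocols, and quantified with kallisto against GRCm38 transcripts, per the submitters' processing notes; the sources used here give neither its version nor an annotation release. The authors deposited expected counts (estimated reads per transcript, not normalized) and TPM, per the file headers, along with transcript lengths as other columns. Identifiers of the 88198 transcripts were looked up in GENCODE's annotation of GRCm38, and 2079 without a gene (1.17% to 1.28% of reads) were left out.

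Estimated counts were summed per gene and over the 2 samples of a unit, the first number of the titles, and rounded. Within a unit the spread of the 2 samples was somewhat above counting noise (chi-square per degree of freedom 1.44 to 1.9, against 7.37 to 108 between units of a group). No label says which animals stand behind a unit, so p-values measure the spread between units, which may be technical. TPM is the mean of the 2 samples.

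edgeR 4.0.16 in R 4.3.3 was used (TMM, filterByExpr, robust quasi-likelihood fit, group as the only term), with Benjamini-Hochberg adjustment over all genes tested. SE derive from the F statistic. The procedure was tested on simulated data. No 31-base word of the 6 genes' transcripts occurs in another gene's transcripts. Alternatives were other scalings and filters, DESeq2 1.42.0, limma-voom (limma 3.58.1), a GC and length offset, single samples of each unit, a replicate block and leaving out each unit. Genes named were the 6, up to 5 called genes of each list, a fixed set of receptors and regulators, and the 2 genes most alike among those with at least 10 CPM. The genes, lists and rules were chosen with earlier results of these data known. Intervals on reads cover counting error only.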

Additional observations from a re-analysis of the deposited data

Results flagged for a closer look

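Ebi3 in control unit 4, at 3.81 CPM, lay far below the other 3 control units (6.27 to 6.59 CPM) for the spread of a group of 4. Fgl2 in control unit 1, at 27.5 CPM, lay far above the other 3 (15.3 to 16.9 CPM) by the same measure. Chance marks about 1 in 20 groups in this way, and 6 groups of 4 were examined, 1 for each gene.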

How the results depend on the processing

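Of the 6 genes, Il10, Ebi3 and Il12a kept their direction in all settings tried, and the signs of Tgfb1, Areg and Fgl2 did not hold in all. The call of Il10 ended with limma-voom (log2 fold change -1.32) and with the GC and length offset (-1.36), where the number of genes called lower was then 0 of 6. With the offset Tgfb1 was at -0.11 and Fgl2 at 0.23, and 598 of all genes were lower against 1028. Leaving out 1 unit gave log2 fold changes of -1.93 to -1.45 for Il10, 3.06 to 4.72 for Il12a and -0.15 to 1.07 for Areg, and 0 or 1 of the 6 genes called in each direction. It left 7 to 13 pathway genes higher, and 758 to 1905 genes called, 449 to 1120 higher and 309 to 978 lower; the total was 758 without control unit 4, 977 without knockout-labelled unit 3, 1122 without control unit 2 and 1131 without knockout-labelled unit 2. The DESeq2 Wald test called 3582 genes, 1926 higher and 1656 lower. The causes were not tested.

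The unit numbers do not pair the groups: deviations of units with the same number correlated at 0.03, -0.12 and -0.05. A fit on units 1 to 3 of each group with a replicate block called 553 genes, 325 higher and 228 lower, with 7 pathway genes in each direction and 0 of the 6 genes in either. Il10 was then at -1.35 and Il12a at 4.82 (adjusted p = 0.162 and 0.0513).

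Among the other 40 named or called genes, 585 values under alternatives kept sign and call, 71 lost the call, 1 gained it and 21 changed sign. Those that changed sign were Il27 (0.76 with limma-voom, 1.04 with the replicate block), Adam17 (0.02 for library size only, 0.01 with no filter, 0.00 from the first sample of each unit), Tgfb2 (0.25 from the first samples) and, with the GC offset, Tgfbr1 (0.33), Il1rl1 (0.02) and Adam10 (0.01). Leaving out 1 unit gave ranges across 0 for Prdm1 (-0.07 to 0.35), Il10ra (-0.22 to 0.01), Il27 (-0.75 to 0.52), Tgfbr2 (-0.14 to 0.06), Lrrc32 (-0.23 to 0.06), Egfr (-0.18 to 0.65), Adam17 (-0.09 to 0.09) and Tgfb2 (-0.53 to 0.11). Depth limits the Il12a values, which rest on 10 control reads.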
